A study of Mus musculus with 12 samples.

Results

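The genes described here carry glucose carbon from the medium to lactate or into the mitochondrion. They encode glucose transporters, the enzymes of glycolysis from hexokinase to pyruvate kinase, lactate dehydrogenases and lactate transporters, and the pyruvate dehydrogenase complex with its kinases and a phosphatase. The genes were taken by name from a list of 34 symbols, in which pyruvate kinase M stood under both its current and its older symbol. All 33 genes of the list were found among the 26061 rows of the gene table, pyruvate kinase M as Pkm2, and all 33 passed the filter on low values that left 14185 genes for testing. RNA came from mouse embryonic stem cells (ESCs) in 12 poly(A)-selected libraries, 3 in each of 4 groups. Every library was made from Tet2 KO ESCs that carried a stably integrated (PiggyBac) construct for TET2, either WT or a catalytic mutant, and every library had received shSetdb1, an shRNA against the histone methyltransferase gene Setdb1, by lentivirus under puromycin selection. Cells grew on gelatin without feeders, either in 2i medium with LIF (naïve ESCs) or in serum medium with LIF (primed ESCs).

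The 2i medium combined DMEM F-12 and neurobasal with the supplements N2 and B27, a MEK inhibitor (PD0325901) and a GSK3 inhibitor (CHIR99021), while the serum medium was DMEM with fetal bovine serum. Base medium, serum and inhibitors changed together, so their parts in any difference between media cannot be told apart. How much glucose and pyruvate each medium held is not given in the sources used here. No control shRNA was analysed here. The number of clones behind each rescue line is not stated, and the labels do not say whether replicate libraries came from separate cultures, so p-values measure only the spread between these libraries.

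Glycolysis splits glucose into pyruvate and yields ATP without oxygen. Hexokinase, phosphofructokinase and pyruvate kinase catalyse its regulated steps, and many steps have isozymes from separate genes with different tissue use and regulation. Pyruvate is then either reduced to lactate and exported, or oxidised to acetyl-CoA by the pyruvate dehydrogenase complex, which pyruvate dehydrogenase kinases switch off and phosphatases switch on. Mouse ESCs are known for a high glycolytic rate, and naïve and primed pluripotent cells are known to differ in how far they also use mitochondrial respiration.

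Depth was 8066662 to 21335933 gene reads per library. Setdb1 was read at 114 to 585 reads per library with no call between rescue lines (adjusted p = 0.857 in 2i and 0.788 in serum), and the Tet2 transcript was higher in the WT line by 2.16 on the log2 scale in 2i (adjusted p = 0.0154) and by 1.84 in serum (adjusted p = 0.0297). It was also lower in 2i than in serum (-1.55 in the WT line, adjusted p = 0.00207, and -1.87 in the mutant line, adjusted p = 0.000515). All 8 pluripotency markers were read in every library, and 4 of them (Lin28a, Utf1, Sall4 and Zfp42) were lower in 2i in both lines, while Nanog was higher in the WT line. Of 5 tested markers of primed cells, all 5 were lower in 2i in both lines, whereas of 6 markers of naïve cells 1 was higher and 1 lower in each line. The fibroblast genes Col1a2, Col3a1, Postn and Dcn were at 0 in every library, and the summed level of the 7 fibroblast markers was 5.58 to 7.75 CPM (counts scaled to library depth) in 2i and 2.48 to 4.90 in serum. Of the 2 fibroblast markers tested, Thy1 was higher in 2i in both lines and Lum was lower in 2i in the mutant line (-0.95, adjusted p = 0.0161). Summed trophoblast markers reached 30.3 to 40.2 CPM in serum WT and 14.3 to 29.96 in serum mutant libraries, against 2.41 to 7.24 in 2i, and neural markers 196 to 279 against 93.1 to 155. Among the trophoblast markers, Krt8 and Krt18 reached 249 and 309 reads in a library. Krt7, Plac1, Cdx2 and Elf5 reached at most 37, 36, 16 and 8. Of the neural markers, Pax6 and Tubb3 were lower in 2i in both lines, whereas Nes was not called (0.30 in the WT and 0.51 in the mutant line). Mesoderm markers summed to 10.2 to 17.3 CPM in serum against 3.08 to 4.25 in 2i, and the 1 tested, Eomes, was lower in 2i in both lines (-1.62, adjusted p = 4.52e-06, and -1.39, adjusted p = 2.08e-05). Among the mesoderm markers too low to be tested, T had means of 4.96 and 4.80 in 2i WT and mutant libraries. Its means in serum were 3.95 and 4.10. Hand1 had means of 3.81 and 3.95 in 2i and 5.90 and 5.17 in serum. Of 3 tested markers of primitive endoderm, Dab2 was lower in 2i in both lines (-1.47, adjusted p = 0.000228, and -0.85, adjusted p = 0.0127), with list sums of 3.33 to 6.84 CPM in 2i and 4.79 to 8.80 in serum. Whether cells of other types took part in the differences between media was not tested, and in bulk RNA fewer cells of a type and less RNA per cell cannot be told apart.

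Within its group, serum mutant library 3 stood apart for these genes. It was the library farthest from its group's median for 25 of the 33 genes, against 3 to 17 in the other libraries, and it lay more than 0.5 on the log2 scale from the mean of its 2 group members for 12 genes, below it for 10 and above it for 2. Calls of the mutant line between media that were lost or gained without it are given with their adjusted p without it.

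Expressed per length, the glycolytic genes spanned more than 3 orders of magnitude. Levels per length are RPKM values, reads per kilobase of annotated exon scaled to the gene reads of the library. Pkm2, here the whole pyruvate kinase M gene with its isoforms not separated, had the highest mean over the 12 libraries (507, from 344 to 657), followed by the glucose transporter gene Slc2a3 (369, from 217 to 517) and Aldoa, the main aldolase (285, from 179 to 385). The ranges of these neighbours overlapped, and the order holds for lengths over all annotated exons of a gene. An order by the length of single transcripts was not computed. The lowest levels per length belonged to Eno2, the neuronal enolase (0.210, with as few as 3 reads in a library), Pfkfb4 (0.413) and Pfkfb2 (0.711). Reads of several of these genes can also fit other positions in the genome. The share of 75-base stretches of the mRNA that recur exactly elsewhere in mm9 was 91.4% for Pgk1, 88.9% for Pgam1, 85.4% for Gapdh, 65.4% for Eno1, 22.5% for Pkm2, 20.3% for Pdhb, 19.4% for Ldhb and 12.5% for Tpi1, and it was 0% to 7.15% for the other 25 genes. The authors placed such reads at random among equally good positions, so the levels of these genes are uncertain. Reads placed elsewhere are not counted for the gene, so its level can be too low, and reads of other positions can be added to it. The place of these genes in the order of levels per length is uncertain too.

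**Figure D1:**
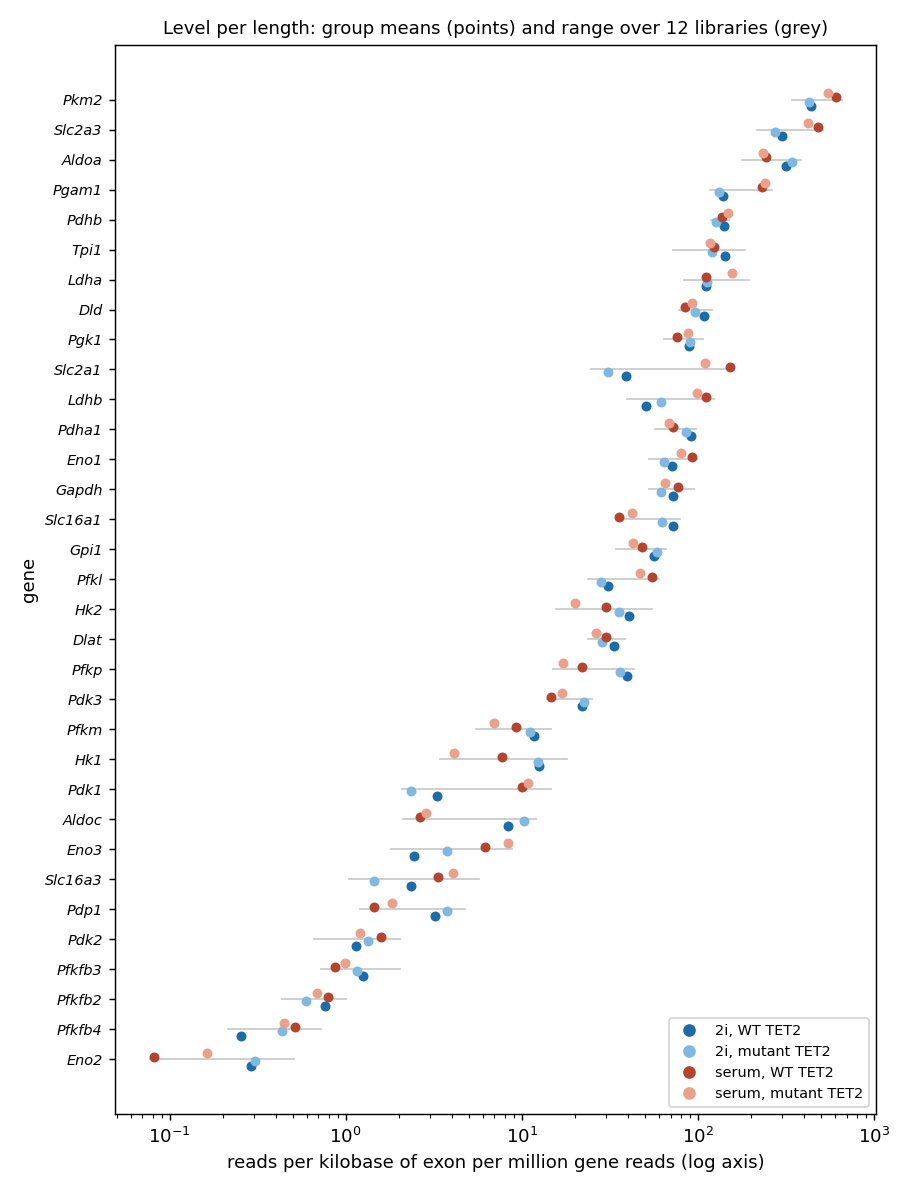
Level per length of each of the 33 genes, in RPKM on a log axis, with 1 point per group mean of 3 libraries and a grey line from the lowest to the highest of 12 libraries. Pkm2 stands highest with a mean of 507 and Eno2 lowest with 0.210, and the media separate clearly for genes such as Slc2a1, Pdk1 and Aldoc. The order is uncertain for genes whose reads also fit other positions in the genome.

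The first question was how these genes differ between naïve and primed culture, asked separately in the WT and in the mutant rescue line, which share no library. In naïve ESCs the glucose transporters Slc2a1 and Slc2a3, the liver phosphofructokinase Pfkl, the mutase Pgam1, the muscle enolase Eno3, the lactate dehydrogenase Ldhb and the kinase Pdk1 were lower in both lines. Hexokinase Hk1, the platelet phosphofructokinase Pfkp, the brain aldolase Aldoc, the lactate transporter Slc16a1 and the phosphatase Pdp1 were higher in both lines. In the WT line 14 of the 33 genes were called by limma at an adjusted p under 0.05 (42.4%), where 35.9% of all 14185 genes tested were called; 7 were higher in 2i (18.6% of all genes) and 7 lower (17.3%). In the mutant line 15 were called (45.5%), against 35.2% of all genes, 7 higher (18.3%) and 8 lower (16.9%). At an unadjusted p under 0.05 each line held 19 of the 33 genes, against 45.7% and 45% of all genes. The shares of called genes were close to those of all genes, and both directions were about equally frequent. The median difference between media was 0.19 in the WT and 0.06 in the mutant line, against 0.01 and -0.01 over all genes tested. Groups of 3 libraries did not overlap for 20 of the 33 genes in the WT line (50% of all genes) and for 14 in the mutant line (43.5% of all genes).

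The 12 genes called in both lines had the same direction in each. They made up 85.7% of the calls in the WT line and 80% of those in the mutant line, against 72.5% and 74% for the calls over all genes. Eno2 and Pdk3 were called in the WT line alone, and Hk2, Aldoa and Slc16a3 in the mutant line alone, while 16 genes were called in neither. The difference of the medium effect between lines, tested as an interaction, called 0 of the 33 genes (0% of all genes tested), so none of these 5 genes was shown to differ between lines. At an unadjusted p under 0.05 the interaction held 1 of the 33 genes, Hk1, against 3.45% of all genes, and limma-voom on recovered counts also called 0. Across the 33 genes the differences in one line followed those in the other with Pearson's r = 0.926 (0.9 over all genes tested), given as a description since genes are not independent.

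**Figure D2:**
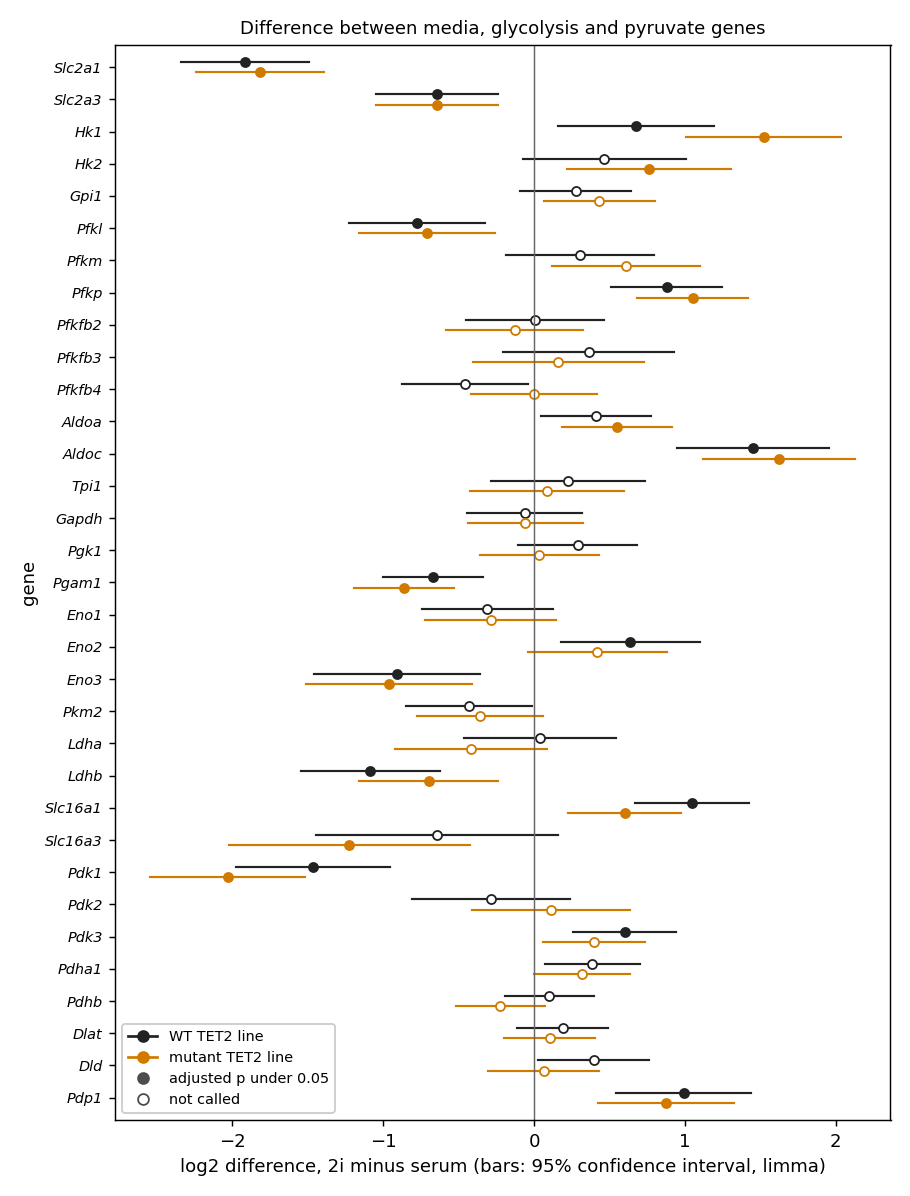
Difference between media (2i minus serum, log2 scale) for each of the 33 genes, in the order of the pathway, for the WT and the mutant rescue line, with 95% confidence intervals from limma and filled points for an adjusted p under 0.05. Slc2a1 and Pdk1 lie farthest to the left at -1.92 and -2.03, and Aldoc farthest to the right at 1.63.

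The upstream sequences of 5 genes called in both lines are shown, since Slc2a1, Pdk1 and Aldoc had the largest differences and Pfkl and Pfkp, isozymes of the same step, lay on opposite sides. Each is the 250 bases before the start of the gene from RefSeq (GRCm38.p6, a later build than the mm9 of the reads), 5′ to 3′ on the strand of the gene, and capitals mark ACGTG or GCGTG on either strand, the core letters of the hypoxia response element that HIF factors bind. Slc2a1 lies at chr4:119108495-119108744 (plus strand), Pdk1 at chr2:71872974-71873223 (plus), Aldoc at chr11:78322823-78323072 (plus), Pfkl at chr10:78009808-78010057 (minus) and Pfkp at chr13:6648772-6649021 (minus). For Pdk1 and Aldoc, which have several starts in the table, the most upstream is shown.
Slc2a1: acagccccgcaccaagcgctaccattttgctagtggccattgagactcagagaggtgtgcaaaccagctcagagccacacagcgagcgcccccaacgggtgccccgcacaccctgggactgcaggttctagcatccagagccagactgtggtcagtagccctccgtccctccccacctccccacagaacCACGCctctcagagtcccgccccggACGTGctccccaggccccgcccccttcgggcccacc
Pdk1: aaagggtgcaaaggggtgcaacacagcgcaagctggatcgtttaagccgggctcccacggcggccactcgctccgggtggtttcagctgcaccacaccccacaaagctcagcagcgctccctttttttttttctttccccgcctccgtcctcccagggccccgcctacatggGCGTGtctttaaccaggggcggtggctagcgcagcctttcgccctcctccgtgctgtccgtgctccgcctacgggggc
Aldoc: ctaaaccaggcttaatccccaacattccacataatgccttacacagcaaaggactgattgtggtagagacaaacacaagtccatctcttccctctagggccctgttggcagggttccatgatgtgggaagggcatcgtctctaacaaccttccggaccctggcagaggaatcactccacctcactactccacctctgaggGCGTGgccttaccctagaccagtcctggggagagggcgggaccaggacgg
Pfkl: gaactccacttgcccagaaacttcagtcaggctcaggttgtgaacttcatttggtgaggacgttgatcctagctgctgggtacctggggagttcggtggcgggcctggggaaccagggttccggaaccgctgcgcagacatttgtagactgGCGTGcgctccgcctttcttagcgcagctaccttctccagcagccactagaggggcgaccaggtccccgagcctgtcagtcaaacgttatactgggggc
Pfkp: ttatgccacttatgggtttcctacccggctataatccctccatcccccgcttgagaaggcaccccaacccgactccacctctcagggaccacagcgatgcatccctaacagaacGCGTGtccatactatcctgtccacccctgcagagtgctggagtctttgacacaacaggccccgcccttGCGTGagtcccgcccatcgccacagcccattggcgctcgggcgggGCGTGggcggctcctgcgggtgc

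These stretches held 2 matches for Slc2a1, 3 for Pfkp and 1 each for Pdk1, Aldoc and Pfkl. The letters were thus present upstream of genes that were lower in 2i and of genes that were higher. Over the 300-base windows of the table (250 bases before to 50 after the start), 31 of the 33 genes were matched, all but Slc2a3 and Pdp1, and 26 of them (83.9%) held ACGTG or GCGTG in at least one window, against 46.7% of 27025 genes in the table and 67.5% of the 9477 tested genes that were matched. Counted by window, 36 of 47 windows of these genes and 43.8% of all 32851 windows held a match. A gene with several windows has more chances of a match, and the 31 genes had 47 windows where the 27025 had 32851. The share by window was not computed for the tested genes. ACGTG alone stood in 18 genes (58.1%, against 29.5% of the matched tested genes), GCGTG in 20 (64.5%, against 56%) and the E-box CACGTG, which holds ACGTG, in 6 (19.4%, against 12%). All 4 matched genes that were higher in both lines and all 6 matched genes that were lower in both held ACGTG or GCGTG. By motif, 3 of those 4 higher and 2 of those 6 lower genes held ACGTG, while GCGTG stood in 4 and 6 and the E-box in 1 and 0, which is a description of few genes with no test. A match is a stretch of letters and not a bound site.

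The glucose transporter genes Slc2a1 and Slc2a3 were lower in naïve ESCs in both rescue lines. Slc2a4, a transporter gene of the wider pathway list, was not called (-0.05, adjusted p = 0.895, and 0.27, adjusted p = 0.429). It was barely read, with group means of 4.77 to 5.09 where the lowest value of any gene was 3.81, so a difference would be compressed. Slc2a1 encodes GLUT1, the widespread basal glucose transporter, and lies at chr4:118781316-118809935 on the plus strand of mm9. Its log2-scale values were 10.02, 10.71 and 10.49 in 2i WT and 12.35, 12.31 and 12.31 in serum WT libraries. Mutant libraries read 9.95, 9.79 and 10.40 in 2i and 12.004, 12.05 and 11.54 in serum. Every serum library lay above every 2i library. The difference of 2i minus serum was -1.92 ± 0.20 (SE) in the WT line, 3.78-fold lower (adjusted p = 2.55e-06), and -1.82 ± 0.20 in the mutant line, 3.52-fold lower (adjusted p = 5.04e-06). Slc2a3 encodes GLUT3, a high-affinity transporter. Its values were 14.77, 14.42 and 14.80 in 2i WT against 15.37, 15.18 and 15.37 in serum WT libraries, without overlap. The mutant libraries also did not overlap, with 14.78, 14.23 and 14.52 in 2i and 15.02, 15.01 and 15.43 in serum. The difference was -0.64 ± 0.19 in each line (adjusted p = 0.0153 and 0.0155). The call was lost without 2i WT library 2 (adjusted p = 0.0646), serum WT library 1 (0.0623) or 3 (0.0578), 2i mutant library 2 (0.0856) or serum mutant library 3 (0.0593). Per length Slc2a3 was the larger part of the pair in every group. Slc2a1 made up 11.8% ± 3.83 (SD, n = 3) of the pair in 2i WT and 24.2% ± 1.29 in serum WT, and 10.2% ± 2.30 and 20.9% ± 5.58 in the mutant line.

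**Figure D3:**
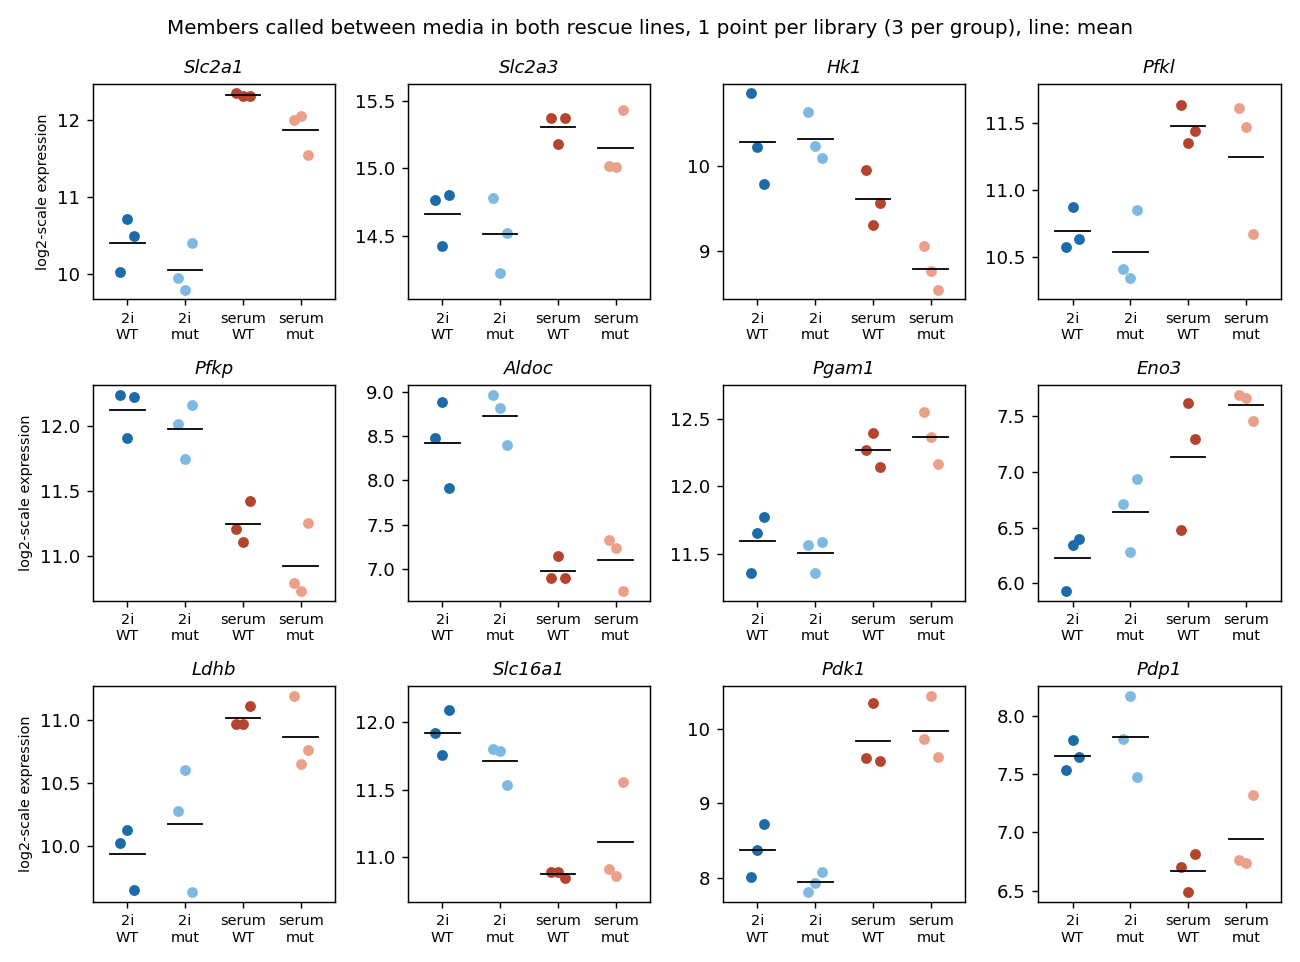
Log2-scale expression of the 12 genes called between media in both rescue lines, with 1 point per library (3 per group) and a line at the group mean; each panel has its own axis. Slc2a1 and Pdk1 separate by medium in every library, while serum mutant library 3 reaches the level of the 2i libraries for Pfkl.

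Of the 6 genes of the hexose phosphate steps, Hk1 and Pfkp were higher and Pfkl was lower in naïve ESCs in both lines, and Hk2 was called higher in the mutant line. Hexokinases trap glucose as glucose 6-phosphate, and the Hk1 product is the widespread form. Hk1 lies at chr10:61731603-61842656 on the minus strand. Its values in the mutant line were 10.63, 10.23 and 10.09 in 2i and 9.06, 8.77 and 8.55 in serum. WT libraries read 10.85, 10.22 and 9.78 in 2i and 9.95, 9.30 and 9.57 in serum. The groups were apart in the mutant line and overlapped in the WT line. The difference was 1.52 ± 0.24 in the mutant line, 2.87-fold (adjusted p = 0.000185), and 0.68 ± 0.24 in the WT line (adjusted p = 0.0395). The WT call did not hold without 2i WT library 1 (0.40, adjusted p = 0.201) or 2 (adjusted p = 0.0678), or serum WT library 2 (0.148) or 3 (0.1), nor with quantile normalization (0.0574) or without the filter on low values (0.051). Hk2, the inducible hexokinase, had values of 11.44, 10.64 and 11.68 in 2i and 10.21, 10.78 and 10.48 in serum mutant libraries, which overlapped. Its difference was 0.76 ± 0.26 (adjusted p = 0.0296), and the call was lost when any of 4 libraries was left out, 2i mutant 1 (0.106) or 3 (0.127) and serum mutant 1 (0.105) or 3 (0.0533). The WT difference of Hk2 was 0.47 ± 0.26 (adjusted p = 0.167). Gpi1, which isomerises glucose 6-phosphate, differed by 0.28 (adjusted p = 0.228) and 0.43 (0.0626), and was called in the mutant line without 2i mutant library 2 (0.56, adjusted p = 0.0393), without serum mutant library 1 (0.0312) or with quantile normalization (0.0317).

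Phosphofructokinase commits sugar to glycolysis, and its isozyme genes moved apart. Pfkp, at chr13:6579014-6648023 on the minus strand, read 12.24, 11.91 and 12.23 in 2i WT and 11.21, 11.11 and 11.42 in serum WT libraries. Mutant libraries read 12.02, 11.75 and 12.16 in 2i and 10.79, 10.73 and 11.25 in serum. The media did not overlap in either line. The difference was 0.88 ± 0.17 (adjusted p = 0.00102) in the WT and 1.05 ± 0.17 (adjusted p = 0.000245), or 2.07-fold, in the mutant line. Pfkl had values of 10.58, 10.87 and 10.64 in 2i WT and 11.63, 11.35 and 11.43 in serum WT libraries, without overlap, a difference of -0.77 ± 0.21 (adjusted p = 0.00975). Mutant values were 10.42, 10.35 and 10.85 in 2i and 11.61, 11.46 and 10.67 in serum. Serum mutant library 3 lay among the 2i libraries. The difference was -0.71 ± 0.21 with it (adjusted p = 0.0162) and -0.998 without it (adjusted p = 0.000467), and the call was lost without 2i mutant library 1 (0.0628) or 2 (0.0728) or serum mutant library 1 (0.0772) or 2 (0.0795). Pfkm, the muscle form, differed by 0.31 ± 0.23 (adjusted p = 0.324) and 0.61 ± 0.23 (adjusted p = 0.0516). It was called in the WT line without 2i WT library 3 (0.59, adjusted p = 0.0445) and in the mutant line without serum mutant library 1 (0.75, adjusted p = 0.0342) or when the 6 libraries of that line alone were fitted (0.0445).

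The log2 ratio of Pfkp to Pfkl differed between media by 1.65 in the WT and 1.76 in the mutant line, without overlap. Per length Pfkp made up 48.1% ± 6.18 (SD, n = 3) of the 3 phosphofructokinase genes in 2i WT and 25.5% ± 2.68 in serum WT, and 47.8% ± 0.425 and 25.3% ± 10.4 in the mutant line. Pfkl made up 37.8% ± 4.70 and 63.7% ± 2.42 in the WT line. By group means the leading isozyme gene was Pfkp in 2i and Pfkl in serum, but in 2i WT library 2 Pfkl (42.7%) lay above Pfkp (41.2%). These shares use lengths over all annotated exons (9395 bases for Pfkp and 4395 for Pfkl). Shares by the length of single transcripts were not computed. The 6-phosphofructo-2-kinase genes Pfkfb2, Pfkfb3 and Pfkfb4, whose products set the level of the phosphofructokinase activator fructose 2,6-bisphosphate, gave 0 calls of 3 in either line, where 35.9% and 35.2% of all genes were called. Their differences ranged from -0.46 (Pfkfb4, adjusted p = 0.0811) to 0.36 (Pfkfb3, adjusted p = 0.306) in the WT line and from -0.13 (Pfkfb2) to 0.16 (Pfkfb3) in the mutant line.

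Of the 10 genes from aldolase to pyruvate kinase, Aldoc was higher and Pgam1 and Eno3 were lower in naïve ESCs in both lines. Aldoc encodes an aldolase best known from brain and lies at chr11:78136470-78141283 on the plus strand. Its values were 8.48, 8.88 and 7.92 in 2i WT and 6.90, 7.14 and 6.90 in serum WT libraries. Its mutant values were 8.97, 8.82 and 8.40 in 2i and 7.33, 7.23 and 6.75 in serum. All 6 libraries in 2i lay above all 6 in serum. The difference was 1.45 ± 0.24 in the WT (2.73-fold, adjusted p = 0.000217) and 1.63 ± 0.24 in the mutant line (3.09-fold, adjusted p = 7.89e-05). Aldoc still gave only 2.55% ± 0.733 (SD, n = 3) of the aldolase level per length in 2i WT and 1.06% ± 0.154 in serum WT, the rest being Aldoa. Aldoa had values of 13.65, 13.39 and 13.34 in 2i and 13.16, 13.06 and 12.51 in serum mutant libraries. The groups did not overlap, and serum mutant library 3 was the lowest. The difference of 0.55 ± 0.17 (adjusted p = 0.0209) fell to 0.35 without that library (adjusted p = 0.0867), was not called without 2i mutant library 1 (adjusted p = 0.0935), and was not called when the 6 libraries of the mutant line alone were fitted (adjusted p = 0.0539). The WT difference of Aldoa was 0.41 ± 0.17 (adjusted p = 0.0747), and it was called when the 6 libraries of that line alone were fitted (0.0376).

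Pgam1 converts 3-phosphoglycerate to 2-phosphoglycerate. It read 11.36, 11.65 and 11.78 in 2i WT and 12.27, 12.40 and 12.14 in serum WT libraries, and 11.56, 11.35 and 11.59 against 12.55, 12.37 and 12.17 in the mutant line. Neither line showed overlap. The difference was -0.67 ± 0.16 (adjusted p = 0.00352) and -0.86 ± 0.16 (adjusted p = 0.000583), over reads of which many can also fit other positions in the genome. Eno3, the muscle enolase, read 5.93, 6.34 and 6.40 in 2i WT and 6.48, 7.62 and 7.30 in serum WT libraries, and 6.71, 6.28 and 6.94 against 7.70, 7.66 and 7.46 in the mutant line. The 2i libraries were below the serum libraries of the same line throughout. The difference was -0.91 ± 0.26 (adjusted p = 0.0124) and -0.96 ± 0.26 (adjusted p = 0.00903). It missed the threshold without 2i WT library 1 (0.0503), serum WT library 2 (0.0711) or 3 (0.0537), or 2i mutant library 2 (0.0557). Eno2 was higher in 2i WT, with 5.71, 4.98 and 5.07 against 4.61, 4.64 and 4.59 (difference 0.64 ± 0.22, adjusted p = 0.0316). On recovered counts limma-voom gave it a log2 difference of 1.59 (adjusted p = 0.034), and its level per length was 0.291 ± 0.186 RPKM (SD, n = 3) in 2i WT and 0.0819 ± 0.00432 in serum WT. It was read near the floor, with 10 to 24 reads in 2i WT and 3 to 8 in serum WT libraries, and the call was lost without 2i WT library 1 (0.41, adjusted p = 0.152) or serum WT library 1 (0.0805), 2 (0.0605) or 3 (0.0818). Eno2 differed in the mutant line by 0.42 ± 0.22 (adjusted p = 0.147). Eno1, the main enolase, made up 90.0% to 96.3% of the enolase level per length in the 4 group means.

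The remaining genes of this stretch, Tpi1, Gapdh, Pgk1, Eno1 and Pkm2, were not called in either line. Gapdh, the dehydrogenase often used as a reference gene, differed by -0.06 ± 0.18 in each line (adjusted p = 0.814 and 0.83). Pgk1, which makes the first ATP of the pathway, differed by 0.29 ± 0.19 (adjusted p = 0.243) and 0.03 ± 0.19 (0.906). Tpi1, which interconverts the triose phosphates, differed by 0.22 and 0.08. Eno1 differed by -0.31 ± 0.21 (adjusted p = 0.255) and -0.29 ± 0.21 (0.294), and Pkm2 by -0.43 ± 0.20 (0.0976) and -0.36 ± 0.20 (0.171). Without serum mutant library 3, the mutant line gave calls for Eno1 (-0.58, adjusted p = 0.011) and Pkm2 (-0.60, adjusted p = 0.0151). In the WT line Pkm2 was called with quantile normalization (adjusted p = 0.0396) or when only the 6 libraries of that line were fitted (0.0396).

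At the lactate end of the pathway, Slc16a1 was higher and Ldhb lower in naïve ESCs in both lines. Slc16a1 encodes MCT1, a transporter that carries lactate and pyruvate across the plasma membrane in either direction, and lies at chr3:104442591-104462385 on the plus strand. Its values were 11.92, 11.75 and 12.09 in 2i WT and 10.89, 10.89 and 10.84 in serum WT libraries. The groups lay well apart, with a difference of 1.05 ± 0.18 (2.07-fold, adjusted p = 0.000287). Mutant values were 11.80, 11.79 and 11.54 in 2i and 10.91, 10.86 and 11.55 in serum. Serum mutant library 3 reached the lowest 2i library. The difference was 0.60 ± 0.18 (adjusted p = 0.0151) with it and 0.82 without it (adjusted p = 0.000635), and the call was lost without 2i mutant library 1 (0.0587) or 2 (0.0551) or serum mutant library 1 (0.0598) or 2 (0.0879). Slc16a3 encodes MCT4, a lactate exporter of strongly glycolytic cells, at chr11:120809794-120822182 on the plus strand. It read 6.91, 6.59 and 7.11 in 2i and 8.23, 8.60 and 7.45 in serum mutant libraries, without overlap. The difference was -1.22 ± 0.38 (2.34-fold lower, adjusted p = 0.0195), and the call was lost without 2i mutant library 2 (0.0785) or serum mutant library 1 (0.0538) or 2 (0.098). WT libraries read 6.51, 8.39 and 6.74 in 2i and 7.78, 8.07 and 7.72 in serum. Library 2 in 2i WT lay above all 3 serum WT libraries. The difference was -0.64 ± 0.38 (adjusted p = 0.196) with that library and -1.23 without it (adjusted p = 0.00435).

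Lactate dehydrogenase interconverts pyruvate and lactate, and Ldhb encodes the heart-type subunit. Ldhb lies at chr6:142438769-142456477 on the minus strand. Its values were 10.02, 10.12 and 9.65 in 2i WT and 10.97, 10.97 and 11.11 in serum WT libraries. Mutant values were 10.27, 10.60 and 9.63 in 2i and 11.19, 10.65 and 10.76 in serum. The media did not overlap in either line, though by little in the mutant line. The difference was -1.08 ± 0.22 (2.12-fold lower, adjusted p = 0.00114) in the WT and -0.70 ± 0.22 (adjusted p = 0.0201) in the mutant line, and the second was lost without 2i mutant library 3 (-0.43, adjusted p = 0.103) or serum mutant library 1 (0.0876). Ldha, the muscle-type subunit gene, differed by 0.04 ± 0.24 (adjusted p = 0.914) in the WT and -0.42 ± 0.24 (adjusted p = 0.187) in the mutant line, and by -0.69 without serum mutant library 3 (adjusted p = 0.0248). Per length Ldhb made up 31.7% ± 6.77 (SD, n = 3) of the pair in 2i WT and 50.4% ± 7.21 in serum WT, and 34.8% ± 5.94 and 39.6% ± 8.34 in the mutant line, where the shares overlapped.

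Among the genes that regulate the entry of pyruvate into the mitochondrial cycle, the kinase Pdk1 was lower and the phosphatase Pdp1 higher in naïve ESCs in both lines. The Pdk1 product phosphorylates and inactivates the pyruvate dehydrogenase complex, and its gene is a known HIF target at chr2:71711281-71741915 on the plus strand. It read 8.01, 8.37 and 8.72 in 2i WT and 9.60, 10.33 and 9.57 in serum WT libraries. Mutant libraries read 7.81, 7.93 and 8.08 in 2i and 9.86, 10.44 and 9.62 in serum. All serum libraries were above all 2i libraries. The difference was -1.47 ± 0.24 in the WT (2.76-fold lower, adjusted p = 0.000226) and -2.03 ± 0.24 in the mutant line (4.09-fold lower, adjusted p = 1.04e-05). Pdp1, whose product reactivates the complex, read 7.54, 7.79 and 7.65 in 2i WT against 6.70, 6.49 and 6.82 in serum WT libraries. Mutant libraries read 7.80, 8.18 and 7.48 against 6.77, 6.74 and 7.33. The media did not overlap in either line, and the difference was 0.99 ± 0.21 (adjusted p = 0.0019) and 0.87 ± 0.21 (adjusted p = 0.00472).

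The other kinase genes behaved differently from Pdk1. Pdk3 read 9.53, 9.42 and 9.44 in 2i WT and 8.97, 8.86 and 8.75 in serum WT libraries, a difference of 0.60 ± 0.16 (adjusted p = 0.0084). The mutant difference was 0.40 ± 0.16 (adjusted p = 0.0649), and was called there without 2i mutant library 3 (0.52, adjusted p = 0.0247) or serum mutant library 3 (0.50, adjusted p = 0.0253). Pdk2 differed by -0.29 ± 0.25 (adjusted p = 0.384) and 0.11 ± 0.25 (0.759). Per length Pdk3 gave 83.2% ± 2.32 (SD, n = 3) of the 3 kinase genes in 2i WT and 56.0% ± 5.71 in serum WT, and Pdk1 12.5% ± 3.37 and 37.7% ± 8.34. Mutant libraries had a Pdk1 share of 9.12% ± 2.16 in 2i and 37.1% ± 9.85 in serum. The subunit genes of the complex itself, Pdha1 and Pdhb of the decarboxylase, Dlat of the acetyltransferase and Dld of the dihydrolipoamide dehydrogenase, gave 0 calls of 4 in either line, against 35.9% and 35.2% of all genes. Their differences ranged from 0.10 (Pdhb) to 0.40 (Dld, adjusted p = 0.0864) in the WT and from -0.22 (Pdhb) to 0.32 (Pdha1, adjusted p = 0.108) in the mutant line. Pdha1 had an adjusted p of 0.0532 in the WT line and passed without 2i WT library 2 (0.47, adjusted p = 0.0424) or when only the 6 libraries of that line were fitted (0.0455), and it passed in the mutant line without serum mutant library 3 (0.43, adjusted p = 0.0326).

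For 10 pairs of related genes, log2 ratios were taken in each library as differences of the deposited values, whose transformation compresses a ratio that involves a low gene. An exact two-sided permutation test of 3 libraries against 3 cannot give a p below 0.1, so no ratio could pass a threshold of 0.05, and the ratios without overlap between media had that value (adjusted over the 10 ratios, 0.125 in the WT and 0.143 in the mutant line). How often ratios of other gene pairs separate the media was not computed. The log2 ratio of Pdk1 to Pdk3 differed by -2.07 in the WT and -2.43 in the mutant line (2i minus serum), and that of Slc16a3 to Slc16a1 by -1.69 and -1.83. In the other direction, Slc2a3 to Slc2a1 differed by 1.28 and 1.17, Pfkp to Pfkl by 1.65 and 1.76, Aldoc to Aldoa by 1.04 and 1.07, and Pfkm to Pfkl by 1.08 and 1.32. Eno2 to Eno1 (0.95, or 1.91 from recovered counts, and 0.71 with overlap in the mutant line), Ldhb to Ldha (-1.12, and -0.28 with overlap in the mutant line) and Eno3 to Eno1 (-0.60 with overlap in the WT line, and -0.68) separated in 1 line each. The ratio of Hk2 to Hk1 overlapped between media in both lines, with differences of -0.21 (exact p = 0.4) and -0.76 (exact p = 0.2). With 1 library left out these differences ranged from -0.42 to -0.07 in the WT and from -1.09 to -0.50 in the mutant line.

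**Figure D4:**
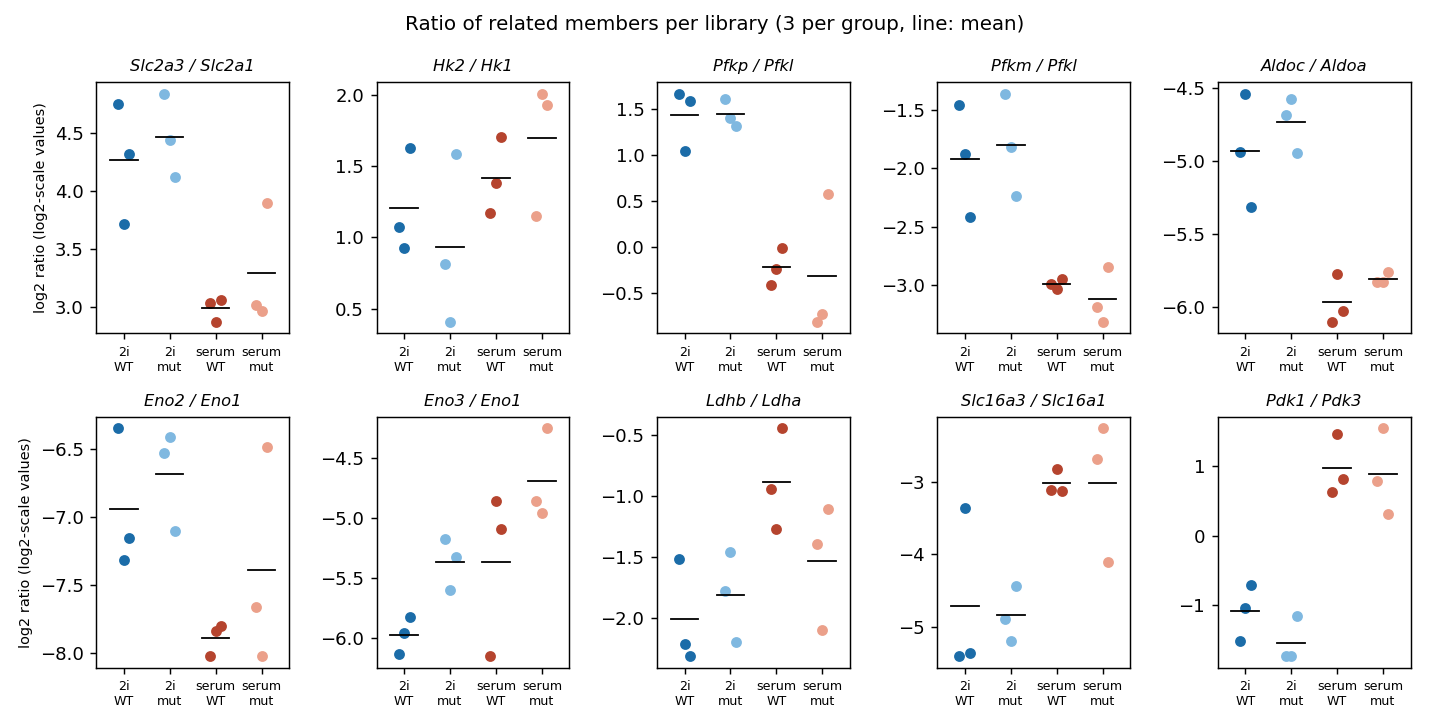
Log2 ratio of 10 pairs of related genes in each library (difference of log2-scale values, not per length), with 3 libraries per group and a line at the group mean; each panel has its own axis. The ratio of Pdk1 to Pdk3 separates the media most, with differences of -2.07 and -2.43, whereas Hk2 to Hk1 overlaps in both lines.

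The second question was whether these genes differ between cells rescued with WT and with catalytic mutant TET2 after depletion of SETDB1. The lines also differed in the amount of Tet2 transcript (2.16 in 2i and 1.84 in serum on the log2 scale), whose part in the results was not tested. RNA libraries do not measure TET2 protein, so these values do not show how much TET2 each line held. No gene was called between WT and mutant rescue lines. In 2i 0 of the 33 genes were called, where 0.0987% of all genes were, and 0 reached an unadjusted p under 0.05 (13.3% of all genes). Differences of WT minus mutant ranged from -0.42 (Eno3) to 0.43 (Pdk1), with a smallest adjusted p of 0.423. The groups did not overlap for Pfkfb4 and Dlat alone, 2 of 33 genes against 16.8% of all genes. Limma-voom on recovered counts also called 0. Same-numbered libraries of both lines deviated together in 2i and were taken as pairs. Within these pairs 6 of the 33 genes differed with one sign in all 3, against 43.8% of all genes: Pdk1 (0.20, 0.44 and 0.65), Slc2a1, Pfkp, Pfkfb2 and Dlat lay above 0 (WT minus mutant) and Pfkfb4 below it. A replicate block was fitted by number over all 12 libraries, so it also blocked the serum libraries, which the numbers did not pair. With this block limma called 0 of the 33 genes in 2i (0.254% of all genes). Pdk1 alone had an unadjusted p under 0.05 (19.7% of all genes), with a difference of 0.43 ± 0.16 (95% interval 0.10 to 0.76, adjusted p = 0.153). The values from the block thus do not rest on the 2i pairs alone.

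In serum 0 of the 33 genes were called, against 0.254% of all genes, and 2 reached an unadjusted p under 0.05 (16.2% of all genes), Hk1 and Slc2a1. Limma-voom on recovered counts called 0 here too. Hk1 read 9.95, 9.30 and 9.57 in serum WT and 9.06, 8.77 and 8.55 in serum mutant libraries, without overlap. Its difference was 0.81 ± 0.24 (95% interval 0.30 to 1.33, adjusted p = 0.181). Slc2a1 read 12.35, 12.31 and 12.31 against 12.004, 12.05 and 11.54, also without overlap, and differed by 0.46 ± 0.20 (adjusted p = 0.279). Its difference was 0.30 without serum mutant library 3 (adjusted p = 0.427). Hk1 and Slc2a1 were the only 2 of the 33 genes without overlap, against 22.4% of all genes. The differences over all 33 genes ranged from -0.50 (Ldha) to 0.81 (Hk1). Without serum mutant library 3 the smallest adjusted p was 0.0973, for Ldha (-0.77). Of the 10 ratios, Eno3 to Eno1 in 2i was the only one without overlap between rescue lines, at -5.97 ± 0.15 (SD, n = 3) in WT and -5.37 ± 0.22 in mutant libraries (exact p = 0.1, the smallest 3 against 3 can give, and 0.875 adjusted over the 10 ratios). Eno3 made up 2.63% to 3.78% of the enolase level per length in 2i WT and 4.22% to 6.21% in 2i mutant libraries. A missed threshold does not show that the lines were alike: without the pairing, the 95% intervals in 2i reached up to 1.15 for Slc16a3 and 0.94 for Pdk1, and down to -0.97 for Eno3.

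**Figure D5:**
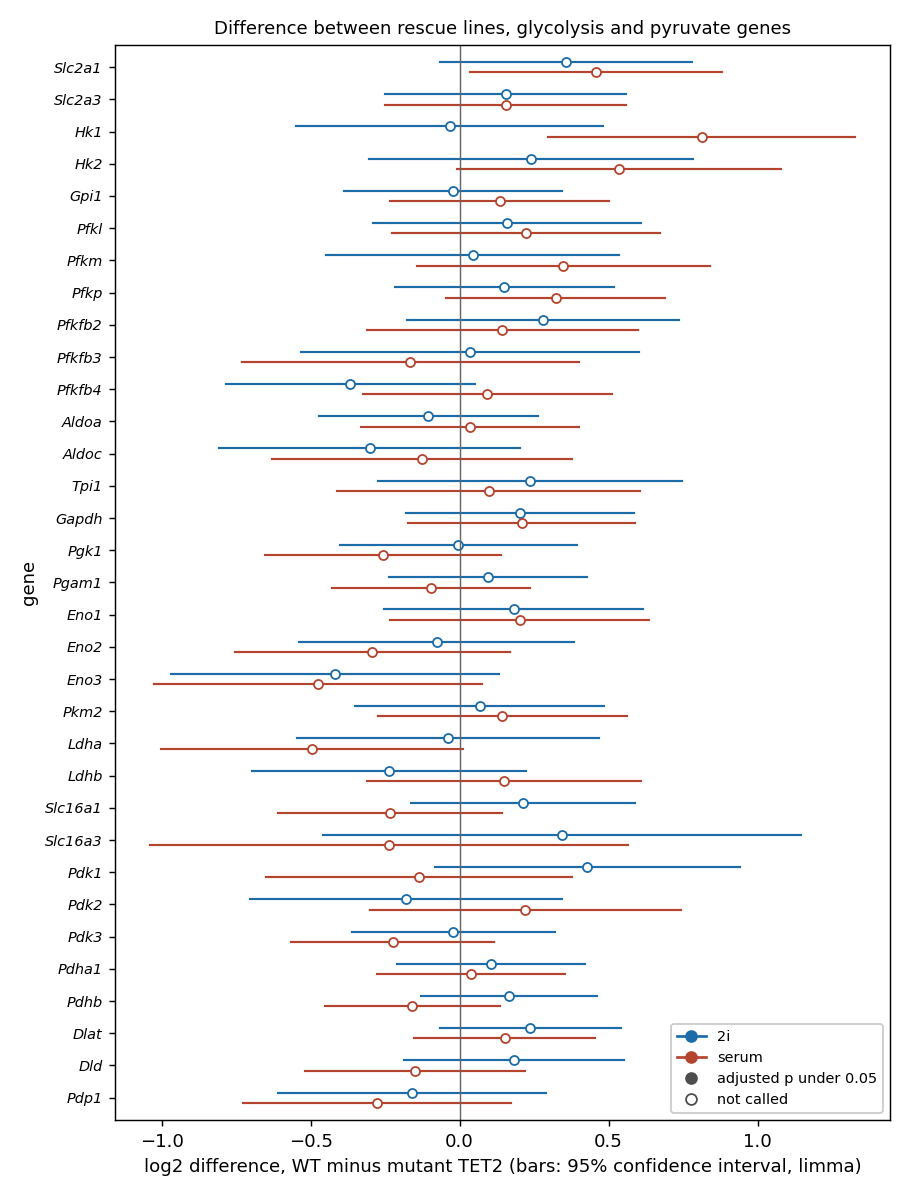
Difference between rescue lines (WT minus mutant TET2, log2 scale) for each of the 33 genes in 2i and in serum, with 95% confidence intervals from limma; open points mark an adjusted p of at least 0.05. All 66 points are open, and Hk1 in serum lies farthest from 0 at 0.81.

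The wider pathway was read from 4 further lists, of which no gene was called between rescue lines or in the interaction. Among 20 tested genes (of 32) of other glycolysis and pyruvate genes, 6 were higher and 1 lower in 2i in the WT line, and 7 and 3 in the mutant line, with medians of 0.28 in each. Over all genes tested 18.6% were higher and 17.3% lower in the WT and 18.3% and 16.9% in the mutant line. G6pc3, a ubiquitous glucose 6-phosphatase, was higher by 1.32 and 1.48 (adjusted p = 0.000401 and 0.00015). Pdp2, the second pyruvate dehydrogenase phosphatase gene, was higher by 1.03 and 0.90, as Pdp1 was. Pdk4, a further kinase gene of the complex, was higher by 0.90 and 1.38 (adjusted p = 0.00678 and 0.000284), unlike Pdk1. Brp44l, now named Mpc1, encodes a subunit of the mitochondrial pyruvate carrier and was higher by 0.98 and 0.81. Bpgm, which makes 2,3-bisphosphoglycerate, was lower (-0.75 and -0.59, adjusted p = 0.00392 and 0.0163). Calls of the mutant line alone were Pgam2, the muscle mutase, at 1.09 (adjusted p = 0.0113), Gpd2, a mitochondrial glycerol phosphate dehydrogenase, at -0.68, and Pdhx, a component of the pyruvate dehydrogenase complex, at -0.54.

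Many glycolytic genes are known targets of the hypoxia factor HIF, so a list of HIF subunits, their regulators and other hypoxia targets was read beside them. Of 23 tested genes (of 25), 6 were higher, among them the regulator Vhl (0.52, adjusted p = 0.0208), and 2 lower in 2i in the WT line and 5 and 2 in the mutant line (all genes, 18.6% and 17.3% in the WT and 18.3% and 16.9% in the mutant line), with medians of 0.09 and -0.10. Ddit4, a stress-induced inhibitor of mTORC1, was higher by 1.26 and 1.83 (adjusted p = 0.00184 and 8.14e-05), and Vegfa, the angiogenic growth factor gene, by 1.04 and 1.11. P4ha1, a collagen prolyl hydroxylase gene, was higher by 0.80 and 0.77. Ndrg1 was called in the mutant line alone (0.97, adjusted p = 0.00699). Kdm3a, a histone demethylase gene (-0.54 and -1.02), and Car12, a carbonic anhydrase gene (-0.70 and -0.66), were lower. Among known HIF targets, Slc2a1 and Pdk1 were lower and Vegfa and Ddit4 higher in the same libraries. The Hif1a transcript differed by 0.07 (adjusted p = 0.834) and -0.34 (0.238). Whether HIF took part in the differences between media was not tested.

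In the tricarboxylic acid cycle and its branches, 21 genes (of 23) were tested, and 10 were higher and 1 lower in 2i in the WT line (all genes, 18.6% and 17.3%) and 9 and 1 in the mutant line (18.3% and 16.9%). The medians were 0.39 and 0.44, against 0.01 and -0.01 over all genes. Me1, the cytosolic malic enzyme that returns malate to pyruvate, was higher by 2.05 and 1.92 (adjusted p = 5.25e-06 and 1.1e-05). Pck2, the mitochondrial phosphoenolpyruvate carboxykinase, was higher by 1.90 and 2.08 (adjusted p = 4.23e-06 and 1.79e-06), and Idh2, a mitochondrial isocitrate dehydrogenase, by 1.39 and 1.44. Me2, the mitochondrial malic enzyme, was lower (-0.45 and -0.49). Of 10 genes of the pentose phosphate pathway, which branches off at glucose 6-phosphate, 3 were higher in the WT line (Rpe at 0.94, Rpia at 0.58 and Tkt at 0.57) and 2 in the mutant line (Tkt and H6pd, each at 0.58), and 0 were lower in either. Over all genes 18.6% and 18.3% were higher, so the mutant count was about that of all genes.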

How the data were processed

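The data were 12 poly(A)-selected, non-directional single-end RNA-seq libraries, grouped by their labels. The authors trimmed reads with Trim Galore 0.3.3, aligned them to mm9 with TopHat2 2.0.9, placed a read with several equally good positions at random, counted reads per gene, and normalised and tested counts with DESeq2. What they deposited is log2-scale expression, made by variance stabilisation, which compresses differences of low genes. A separate table of repeat classes was not used. Undoing the transformation gave whole reads (within 0.1) for 100% of values. Library depth limits the precision, and reads are not independent molecules.

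Gene expression was tested with limma 3.58.1 (R 4.3.3, trended variance), fitting the 4 groups together, and p-values were adjusted by Benjamini-Hochberg over the 14185 genes with a mean of 1 or more over the table's minimum. Genes with an adjusted p under 0.05 were called. The procedure was tested on simulated data for the WT comparison between media, with 200 genes changed. It called 72 of 100 genes changed by 1 on the log2 scale, all 100 changed by 2, and 15 unchanged genes. The simulated counts shared 1 dispersion (0.0321) and were put on a log2 scale simpler than the deposited one. The comparisons between rescue lines were not simulated. Alternatives changed the filter (none, or 3 over the minimum), the variance trend, the centring, the normalization (quantile), the model (a replicate block, or limma-voom on recovered counts), the libraries fitted and the size required of a difference.

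Exon lengths, positions in mm9 and overlaps came from GENCODE vM1, and the authors' gene models are not given in the sources used here. Exons of Slc2a1, Hk1, Gpi1, Pfkp, Pfkfb2, Tpi1, Slc16a3 and Pdha1 overlap a gene on the opposite strand, whose reads are not separated. Promoter windows came from RefSeq. Python 3.11.15, numpy 2.4.6, pandas 2.3.3, scipy 1.17.1 and matplotlib 3.10.9 were used.

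The members and lists were chosen with earlier results of these data known. By rule every member was named, values in every library were given for members called with an absolute log2 difference over 1 (or the 6 largest, where fewer were), and up to 3 called genes in each direction were named from each other list. Library values of further called members, and of Hk1 and Slc2a1 between rescue lines, and the genes Hif1a, Vhl, Thy1, Lum, Eomes, Dab2, Slc2a4, Nanog and the 4 named pluripotency markers, and the signs within pairs, were added after their values were seen. So were the trophoblast, neural and other mesoderm markers that are named singly.

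Groups share replicate numbers in the labels. Same-numbered libraries of the 2 rescue lines deviated together in 2i (r = 0.586, 0.3 and 0.385 across genes, all above 0.1), and these numbers were taken as pairs.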

Additional observations from a re-analysis of the deposited data

How the results depend on the processing

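Of 405 recomputed differences of called members, 366 kept their call, 39 lost it and 0 changed sign. Slc2a1, Pfkp, Aldoc, Pgam1, Pdk1 and Pdp1 were called in both lines under all 14 alternatives run for each. Both statements leave out the alternative that required a size of the difference. Requiring also a log2 difference over 1 left 2 higher and 3 lower genes in the WT and 3 and 3 in the mutant line. Pgam1 (-0.67 and -0.86) and Pdp1 (0.99 and 0.87) then lost their calls in both lines, and Pfkp (0.88) in the WT line. With 1 library left out, the WT line gave 5 to 8 higher and 5 to 7 lower genes and the mutant line 4 to 7 and 4 to 10, the last without serum mutant library 3. Lower calls in the mutant line fell to 4 without 2i mutant library 2 and to 5 without serum mutant library 1, and higher calls to 4 without 2i mutant library 1. From recovered counts the ratio of Eno2 to Eno1 differed by 1.91 in the WT line (0.95 on the transformed scale). In the mutant line it differed by 1.28 (0.71), and Aldoc to Aldoa by 1.28 (1.07), since the transformation compresses low counts.

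The replicate block was fitted over all 12 libraries together, so its 2i counts also rest on blocks of serum libraries. With it the members called between rescue lines stayed at 0 in 2i, where the pairing holds. Calls over all genes there went from 13 to 23 higher and from 1 to 13 lower. In serum the numbers did not pair the libraries (r = 0.161, -0.0652 and 0.189, with 1 of 3 WT libraries correlating best with the mutant library of its number), and the block gave 1 higher gene, Hk1 (0.81, adjusted p = 0.0196), and 115 higher and 94 lower genes over all. Between media the numbers did not pair the libraries either (2 of 3 libraries correlated best with their number in the WT and 0 of 3 in the mutant line), and the block gave 7 higher and 7 lower members in the WT and 8 and 8 in the mutant line, the added one being Pfkm (0.61, adjusted p = 0.0341). Counts of all genes called between rescue lines ranged over the alternatives from 5 to 23 higher and 0 to 13 lower in 2i and from 12 to 115 higher and 0 to 94 lower in serum, where 29 higher and 7 lower became 27 and 13 with centring and 29 and 14 with quantile normalization. Between media the counts over all genes moved by over 1.5 times with the log2 difference over 1 (912 higher and 833 lower in the WT, 941 and 695 in the mutant line) and with the stricter filter (1632 lower in the WT line). The interaction called 1 gene without 2i WT library 1 and 0 under the other alternatives. The cause of these changes was not tested. Counts as low as 3 reads limit Eno2.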
